A study of Mus musculus with 4 samples.

Results

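Nuclear receptors for hormones and lipids were followed in mouse osteoclast cultures with and without BMS-582949, an inhibitor of the p38α kinase. Members were chosen by name, through the symbols of the Ensembl identifiers in the count table, and are 10 of its 23390 gene models. They are Vdr, Rxra, Rara, Pparg, Ppard, Nr3c1, Esr1, Nr1d1, Nr1d2 and Rora. All 10 had enough counts to be tested.

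Marrow cells of C57BL/6J mice, wild-type by label, spent 3 days becoming macrophages in supernatant of L929 cells, a fibroblast line whose medium supplies M-CSF (the equivalent of 20 ng/ml of the recombinant cytokine). After reseeding overnight they received 40 ng/ml RANKL, the cytokine that drives osteoclast formation, in DMSO (2 libraries) or with 10 µM BMS-582949 (2 libraries). RNA was taken at day 4. The design text has the compound present for 3 days and the treatment protocol for 4, and that protocol names the compound for all 4 samples, so groups follow the treatment label.

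Nuclear receptors are transcription factors with a zinc finger domain that binds DNA and, in most, a pocket for a small fat-soluble ligand. VDR, RARs and PPARs bind DNA as pairs with a retinoid X receptor (RXR), whereas the glucocorticoid and oestrogen receptors act mainly as pairs of their own kind after release from chaperones. REV-ERB proteins (Nr1d1, Nr1d2) repress, and ROR proteins activate, genes through shared DNA elements of the circadian clock. In bone, vitamin D, retinoids, glucocorticoids and oestrogens all alter how osteoclasts form or survive.

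Depth ranged from 35331889 to 39255925 counts per library, and the replicates of a group correlated at 0.9864 (DMSO) and 0.9851 (BMS-582949) across genes. Mitochondrially encoded genes took 6.52% and 5.85% of counts in DMSO against 3.6% and 4.07% in the treated libraries, and TMM factors were 0.880 and 0.872 against 1.15 and 1.13. The labelled cell type showed in the markers. All 12 osteoclast markers were detected, and together they took 113000 and 118000 CPM (counts relative to the TMM-scaled library total) in DMSO against 13700 and 14000 CPM with BMS-582949. All 12 fell, among them the acid phosphatase gene Acp5 (log2 fold change -3.21) and the protease gene Ctsk (-2.96). Of 12 macrophage markers 7 rose and 2 fell. Their summed level differed little, at 10600 and 10900 CPM in DMSO against 11300 and 12100 CPM with BMS-582949. The part of these shifts in the receptor values was not tested. Since these are whole cultures, fewer cells of a type and less RNA per cell cannot be told apart for any gene below.

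With BMS-582949 the genes for RXRα, RARα, PPARγ and the glucocorticoid receptor rose, those for PPARδ, REV-ERBα and RORα fell, and those for VDR, the oestrogen receptor ERα and REV-ERBβ were not called. Calls are from edgeR's quasi-likelihood test, at p under 0.05 after Benjamini-Hochberg adjustment over all 13214 genes tested. Thus 4 of the 10 receptors were called higher, where 30.5% of all tested genes were, and 3 were called lower, where 29.7% were. In either direction 7 were called against a background of 60.2%, so the receptors were called about as often as other genes. Their median absolute log2 fold change was 0.56, beside 0.50 over all genes. The groups did not overlap for any of the 10, which held for 80.2% of all tested genes. Fold changes are relative to TMM scaling. Scaling by library size only, without TMM, raised the median over all genes by 0.38 on the log2 scale, and under it 7 receptors were called higher and 1, Ppard, lower.

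**Figure D1:**
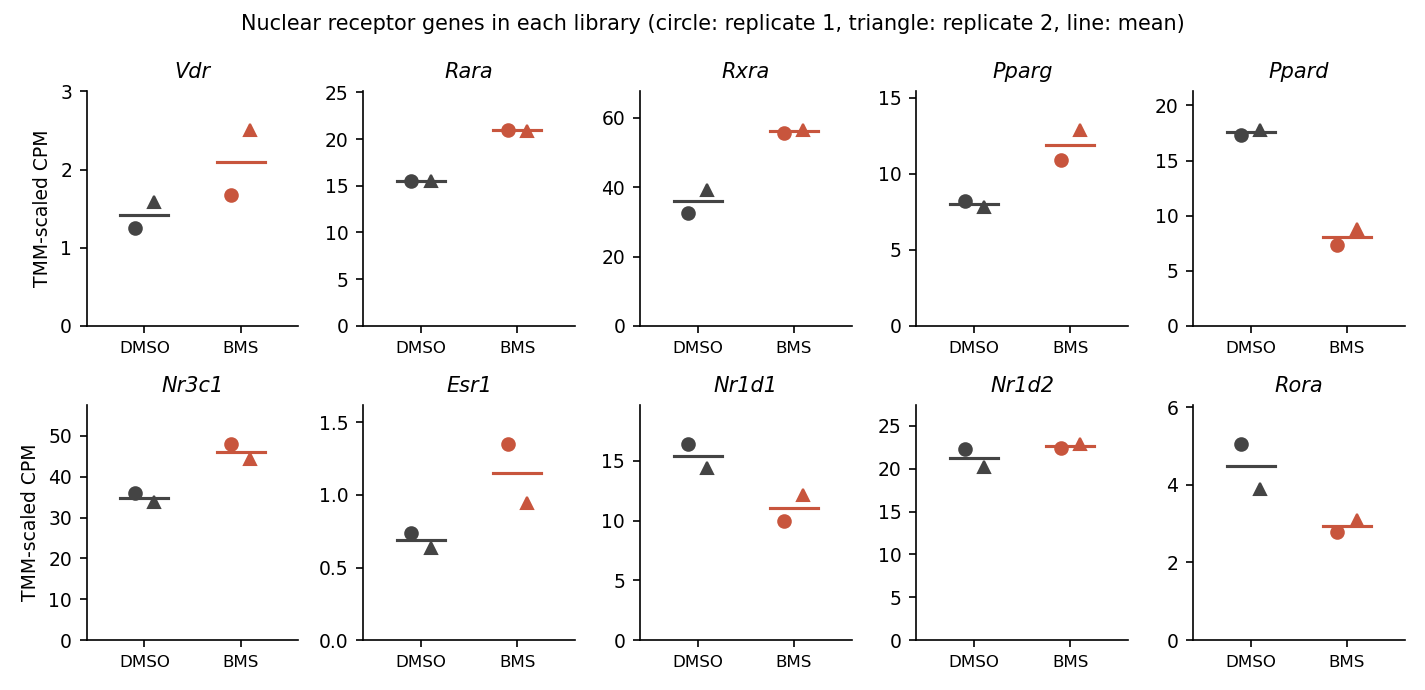
TMM-scaled CPM (y axis, from 0, a scale of its own in each panel) of the 10 receptor genes in DMSO and BMS-582949 cultures. Each point is 1 library and each line the mean of 2. Ppard sits between 17.3 and 17.8 in DMSO and between 7.30 and 8.77 with the inhibitor, the widest separation of the 10 relative to its level.

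Rxra (ENSMUSG00000015846) encodes RXRα, the shared partner of VDR, RAR and PPAR proteins. The gene lies on chromosome 2 at 27676440 to 27762957 (GRCm38). Its level was 32.7 and 39.1 CPM in the DMSO libraries and 55.6 and 56.6 CPM in the BMS-582949 libraries. Both treated libraries lay above both controls, which differed more from each other than the treated pair did. The log2 fold change was 0.64 ± 0.09 (SE, n = 2 each, adjusted p = 6.8e-05).

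The other RXR gene with high counts moved the opposite way. Rxrb, described here as the paralogue of Rxra and chosen after its values were seen, fell from 82.5 ± 4.52 (SD) to 54.6 ± 0.651 CPM, a log2 fold change of -0.60 ± 0.07 (adjusted p = 1.2e-05), and by 0.21 with library size only. Ratios of related receptors were also chosen after their values were seen and are given without a test. A ratio of 2 genes within a library does not depend on how libraries are scaled. Per exon length, the Rxra to Rxrb ratio stood at 0.30 and 0.332 in DMSO, against 0.748 and 0.747 in the treated libraries, a change of 2.37 times. Rxra accounted for 23.1% and 24.9% of the summed level per exon length of the 3 RXR genes in DMSO, and for 42.3% and 42.4% with the inhibitor. Rxrb remained the more abundant of the pair in all 4 libraries.

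Rara (ENSMUSG00000037992) encodes RARα, a receptor for retinoic acid (chromosome 11, 98927818 to 98974942). It measured 15.5 CPM in both DMSO libraries, and 21 and 20.9 CPM with BMS-582949. The replicates nearly coincided, and the groups were apart. The rise was 0.43 ± 0.11 on the log2 scale (SE, adjusted p = 0.0046). Its paralogue Rarg, also chosen after its values were seen, fell from 21.2 ± 0.295 to 13 ± 0.146 CPM (log2 fold change -0.70 ± 0.11, adjusted p = 1.4e-04). Per exon length the Rara to Rarg ratio was 0.722 and 0.706 in DMSO and 1.56 and 1.58 with the inhibitor, so that the more abundant RAR gene was Rarg in the control libraries and Rara in the treated ones.

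Pparg (ENSMUSG00000000440) encodes PPARγ, a receptor for fatty acid derivatives that is best known from fat cells and is also present in macrophages (chromosome 6, 115360951 to 115490399). The DMSO libraries had 8.24 and 7.83 CPM, and the BMS-582949 libraries 10.9 and 12.9 CPM. The treated libraries were higher but spread more widely than the controls. Pparg rose by 0.56 ± 0.14 on the log2 scale (SE, adjusted p = 0.0046), and without BMS-582949 replicate 2 it was 0.42 and not called (adjusted p = 0.061). Fat cell markers were near absent: of 8, 4 had no count in any library, and their summed level was 0.862 to 2.16 CPM per library, higher in DMSO. The 1 of them tested fell (-1.07), and was not called with library size only (-0.69).

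Ppard (ENSMUSG00000002250) encodes PPARδ, a fatty acid receptor of wide tissue range (chromosome 17, 28232700 to 28301474). It measured 17.3 and 17.8 CPM in DMSO and 7.30 and 8.77 CPM with BMS-582949. This was the largest change of the 10 in absolute log2 terms, with the groups far apart. It fell by 1.13 ± 0.13 on the log2 scale (SE, adjusted p = 1.2e-05), or 2.18-fold, and under library size only by 0.75, still called. The Pparg to Ppard ratio per exon length was 1.21 and 1.12 in DMSO and 3.80 and 3.73 with the inhibitor, a 3.23-fold change and the largest of the 4 paralogue ratios computed.

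Starts of these PPAR genes are shown because the pair moved in opposite directions and because nuclear receptors of the RXR-pairing kind bind the half-site AGGTCA. Each run is the RefSeq window (GRCm38.p6) from 250 bases before to 50 after a start site, 5′ to 3′ on the gene's strand, with AGGTCA matches on either strand in capitals. The Pparg window is the most upstream of 3 that RefSeq lists (chr6:115360894-115361193, plus strand) and the Ppard window the one listed (chr17:28232504-28232803, plus strand). The Pparg window shown has 1 match, 28 bases before the start, and Ppard has none. Of the Pparg windows not shown, chr6:115362099-115362398 has 1 match and chr6:115421816-115422115 has none.
Pparg: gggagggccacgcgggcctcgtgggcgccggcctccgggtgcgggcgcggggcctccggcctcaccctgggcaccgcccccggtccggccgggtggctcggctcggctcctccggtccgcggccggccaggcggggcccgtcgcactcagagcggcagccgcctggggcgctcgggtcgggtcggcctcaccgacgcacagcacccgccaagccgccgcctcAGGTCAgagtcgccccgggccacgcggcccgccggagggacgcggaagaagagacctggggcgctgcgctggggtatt
Ppard: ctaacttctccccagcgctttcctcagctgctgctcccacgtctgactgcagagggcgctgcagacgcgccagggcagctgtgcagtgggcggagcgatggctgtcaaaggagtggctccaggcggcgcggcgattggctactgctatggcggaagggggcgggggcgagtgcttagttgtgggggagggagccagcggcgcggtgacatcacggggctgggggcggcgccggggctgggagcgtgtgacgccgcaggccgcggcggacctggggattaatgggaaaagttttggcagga

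Counts were summed over each gene, so no start site has a level of its own. Among the windows searched (16 start sites of 9 receptors, both strands), AGGTCA occurred in 5 windows of 4 genes (Rxra, Rara, Pparg and Nr1d2). Across all 32851 mouse windows of this length 16.3% held it. A pair of exact half-sites in the same direction with any 2 bases between them contains the single half-site. Such a pair was in no window of these receptors and in 0.00913% of all, so its absence here says little. Variant forms of the half-site were not searched for. The clock element CACGTG, which reads the same on both strands, was found in 2 overlapping windows of Rara and in 7.15% of all windows.

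**Figure D2:**
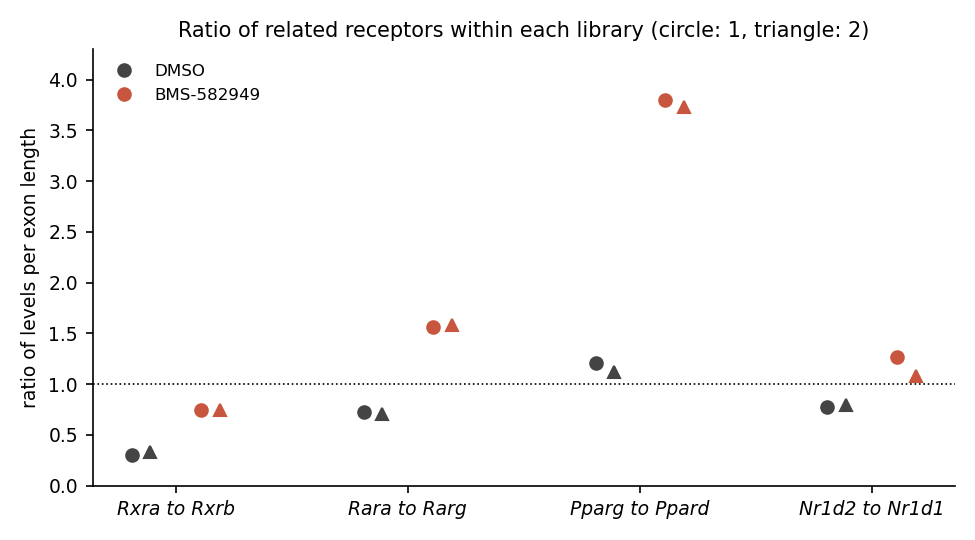
Ratio of 2 related receptor genes within each library (y axis, levels per exon length, from 0), for DMSO and BMS-582949. Circles are replicate 1 and triangles replicate 2, and the dotted line marks equal levels. The Pparg to Ppard ratio goes from between 1.12 and 1.21 to between 3.73 and 3.80.

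Vdr (ENSMUSG00000022479) encodes the receptor for active vitamin D (chromosome 15, 97854425 to 97910630). Its counts were low, with 39 and 50 in DMSO against 76 and 106 in the treated libraries, or 1.25 and 1.58 CPM against 1.68 and 2.51 CPM. The groups stood apart only by the small gap between DMSO replicate 2 and BMS-582949 replicate 1. Vdr was not called (log2 fold change 0.56, 95% interval -0.20 to 1.32, adjusted p = 0.19), but with library size only it was (0.94, adjusted p = 0.032).

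Nr3c1 (ENSMUSG00000024431) encodes the glucocorticoid receptor, which many anti-inflammatory drugs target. It measured 36.0 and 33.8 CPM in DMSO and 48.0 and 44.3 CPM with BMS-582949. Both treated libraries were higher, by a margin larger than the spread in either group. Nr3c1 rose by 0.40 ± 0.09 on the log2 scale (SE, adjusted p = 0.0019), and by 0.22 after correcting libraries for GC content and gene length (adjusted p = 0.034).

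Esr1 (ENSMUSG00000019768) encodes the oestrogen receptor ERα (chromosome 10, 4611593 to 5005614) and was the least abundant of the 10. It had 23 and 20 counts in DMSO and 61 and 40 with BMS-582949, which is 0.740 and 0.634 CPM against 1.35 and 0.945 CPM. The treated values were higher in both libraries but rest on few reads. Esr1 was not called (log2 fold change 0.74, 95% interval -0.25 to 1.72, adjusted p = 0.18). It was called with library size only (1.12, adjusted p = 0.045). Stromal and osteoblast markers, from cells that can carry this receptor, summed to 792 and 725 CPM in DMSO and 509 and 507 CPM with the inhibitor. Of the 13 markers 10 were tested, 7 fell and 1 rose, and the osteoblast gene Bglap was at 0. With library size only 4 fell (median -0.18, against -0.56). Their part in the Esr1 values was not tested.

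Nr1d1 (ENSMUSG00000020889) encodes REV-ERBα, a haem-binding repressor of the clock (chromosome 11, 98767932 to 98775333, minus strand). It measured 16.4 and 14.4 CPM in DMSO and 10.0 and 12.1 CPM with BMS-582949. Both treated libraries were lower, with a spread of about the same size in each group. The log2 fold change was -0.48 ± 0.14 (SE, adjusted p = 0.0089). It was -0.10 and not called with library size only (adjusted p = 0.54), and -0.35 and not called without BMS-582949 replicate 1 (adjusted p = 0.088).

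Exons of Nr1d1 overlap those of the thyroid hormone receptor gene Thra on the opposite strand, over 263 bases or 8.55% of the Nr1d1 exon length. Reads there cannot be assigned without strand, and whether counting used strand is not given in the sources used here. Thra also fell, from 16.7 and 14.4 CPM to 9.57 and 9.17 CPM (log2 fold change -0.73 ± 0.13, adjusted p = 3.7e-04).

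Nr1d2 (ENSMUSG00000021775), for REV-ERBβ, lies on chromosome 14 at 18204054 to 18239127. In DMSO it had 22.3 and 20.2 CPM, and under BMS-582949 22.4 and 22.9 CPM. The groups nearly touched. Nr1d2 was not called (log2 fold change 0.09, 95% interval -0.15 to 0.34, adjusted p = 0.51). The sign turned with the GC and length trend removed (-0.08), and library size only gave a called rise of 0.47 (adjusted p = 0.0032). The Nr1d2 to Nr1d1 ratio per exon length was 0.773 and 0.796 in DMSO and 1.27 and 1.08 with the inhibitor.

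Start sites of both REV-ERB genes are printed because their ratio shifted and REV-ERB proteins bind AGGTCA elements themselves. The Nr1d1 window is chr11:98775328-98775627 and that of Nr1d2 chr14:18239057-18239356, both on the minus strand and drawn as before, with AGGTCA in capitals. Nr1d2 has 1 exact match, 77 bases before the start, and Nr1d1 has no exact match in this window. Variant forms of the element were not searched for, so the search cannot show that Nr1d1 lacks a REV-ERB site.
Nr1d1: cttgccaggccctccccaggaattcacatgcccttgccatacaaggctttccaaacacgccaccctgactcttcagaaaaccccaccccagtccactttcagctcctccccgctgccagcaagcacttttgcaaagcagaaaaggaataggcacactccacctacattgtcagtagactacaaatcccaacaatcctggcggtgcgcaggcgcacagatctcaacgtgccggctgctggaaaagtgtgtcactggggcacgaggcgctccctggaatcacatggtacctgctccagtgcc
Nr1d2: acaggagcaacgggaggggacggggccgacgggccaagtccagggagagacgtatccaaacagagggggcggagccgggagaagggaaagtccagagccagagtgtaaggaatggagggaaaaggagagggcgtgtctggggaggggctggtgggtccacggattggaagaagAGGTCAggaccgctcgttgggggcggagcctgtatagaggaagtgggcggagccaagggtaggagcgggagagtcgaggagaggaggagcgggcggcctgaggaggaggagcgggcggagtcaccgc

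Rora (ENSMUSG00000032238) encodes RORα, which activates the elements that REV-ERB proteins repress (chromosome 9, 68653786 to 69388246). An antisense gene model overlaps 0.627% of its exon length. It measured 5.05 and 3.90 CPM in DMSO and 2.79 and 3.10 CPM with BMS-582949. Both treated libraries were lower, while the 2 controls differed from each other by more than the gap between the groups. The log2 fold change of -0.61 ± 0.24 (SE) was called narrowly (adjusted p = 0.042). Its call ended in 5 of 15 alternatives, among them DESeq2 (adjusted p = 0.12), library size only (-0.23), and the fits without DMSO replicate 1 (-0.41) or without BMS-582949 replicate 1 (-0.54).

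**Figure D3:**
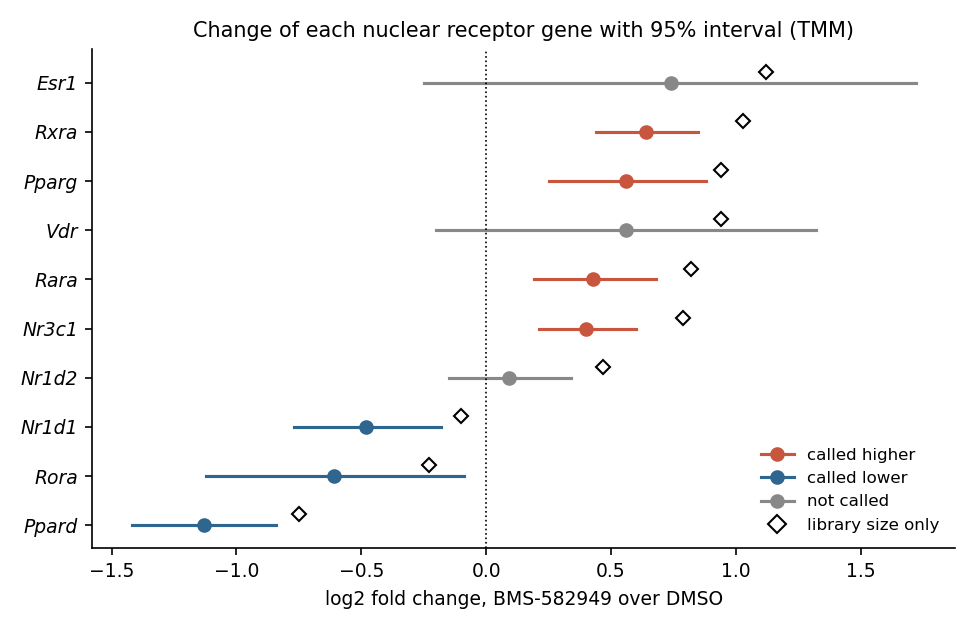
Log2 fold change of each receptor gene, BMS-582949 over DMSO (x axis), with 95% intervals from the edgeR fit as bars (2 libraries per group). Diamonds give the same value with library size only and lie to the right of every circle. Ppard at -1.13 stays below 0 by either scaling, while Nr1d1 and Rora come close to 0.

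Levels can be set between genes only per length, as CPM per kilobase of exon. In DMSO the order was Rxra (6.57 ± 0.832, SD), Nr1d1 (5.00 ± 0.449), Nr3c1 (4.54 ± 0.207), Nr1d2 (3.92), Rara (3.55), Pparg (2.72), Ppard (2.33), Rora (0.342), Vdr (0.251) and Esr1 (0.0503). Of these neighbours Nr1d1 and Nr3c1 overlapped between libraries and the others did not. With BMS-582949 Rxra was again first (10.3 ± 0.120), followed by Nr3c1 (6.01) and Rara (4.80). Nr1d2 (4.18), Pparg (4.02) and Nr1d1 (3.59) overlapped in sequence, and Ppard (1.07), Vdr (0.370), Rora (0.225) and Esr1 (0.0840) were lower in that order. Nr1d1 thus went from the second place to the sixth. Exon length here is the union over all transcripts, which lowers the value of genes with many alternative exons.

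Among 49 nuclear receptor genes of the table, Rxra held rank 6 in both groups. The 5 genes above it in DMSO were Nr1h2, Esrra, Rxrb, Nr2f6 and Nr1h3, none of them among the 10. Among the tested genes with an annotated exon length, which leaves out NewGene models, Rxra lay in DMSO at percentile 59.8, Vdr at 10.7 and Esr1 at 1.73.

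**Figure D4:**
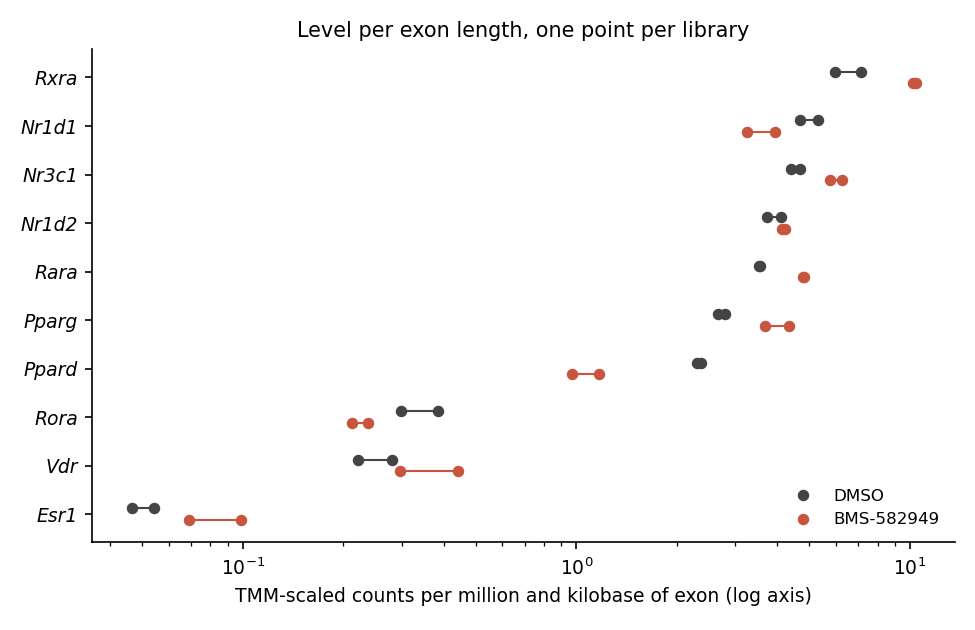
Level per exon length in each library (x axis, CPM per kilobase, log scale), genes ordered by their DMSO mean. Joined points are the 2 libraries of a group. Of the 10 genes 7 lie above 1 in every DMSO library and Rora, Vdr and Esr1 below 0.4.

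Other genes of the receptor pathways came from lists chosen with earlier results of these data known, so counts are given as description beside the background of 30.5% higher and 29.7% lower. Of 17 tested nuclear receptors outside the 10, 2 rose and 7 fell (median log2 fold change -0.54, and -0.16 with library size only). Rxrg, named after its values were seen, was among those that rose. It had no count in DMSO and passed the count filter only through its treated libraries. The orphan receptor gene Esrra, a regulator of mitochondrial genes, went from 121 ± 3.62 to 55.8 ± 2.33 CPM (-1.11 ± 0.07 SE). Nr1h3, for the oxysterol receptor LXRα, rose by 0.33 from 27.3 ± 0.244 CPM. The fall of Nr2f6 was 0.89, with 54.4% of its exon length shared with another gene.

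Coactivator and corepressor genes mostly rose, 13 of 20 tested against 1 that fell (median 0.48), and 18 against 1 with library size only (0.86). Ncor1, a corepressor that unliganded receptors recruit, rose by 0.46. Ncoa3, a coactivator, went from 34.7 ± 0.390 to 61.7 ± 4.86 CPM (0.83). The member that fell was Ppargc1b, a coactivator of mitochondrial gene expression, from 18.6 ± 1.18 to 5.37 ± 0.996 CPM (-1.79 ± 0.15 SE, adjusted p = 5.7e-07).

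Chaperones of steroid receptors rose in 10 of 14 cases and fell in none (median 0.24), with 1 called lower in each of 3 alternatives. With library size only all 14 were called higher (median 0.62). Ptges3, which encodes the p23 co-chaperone, rose by 1.04 ± 0.08 (SE). Fkbp5, a co-chaperone and itself a known glucocorticoid target, went from 14.1 and 13.1 CPM to 39.4 and 38.4 CPM (1.52 ± 0.11 SE, adjusted p = 1.4e-07).

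Glucocorticoid receptor targets did not move as one. Of 12 tested, 3 rose and 6 fell (median -0.15), whereas with library size only 6 rose and 3 fell (0.23). Against the rise of Fkbp5 and of the kinase gene Sgk1 (1.15), Tsc22d3, which encodes the anti-inflammatory protein GILZ, went from 141 and 149 CPM to 46.2 and 53.7 CPM (-1.54 ± 0.08 SE, adjusted p = 5.9e-09). Ddit4, a stress-responsive inhibitor of mTORC1, changed by -2.57 from 4.70 ± 0.953 CPM.

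PPAR targets split too, with 5 higher and 8 lower of 16 (median -0.10), and with 8 higher and 6 lower with library size only (0.29). Among those that rose, the fatty acid transporter gene Cd36 went from 117 ± 5.48 to 173 ± 2.54 CPM (0.57), Fabp5 from 198 ± 0.204 to 356 ± 19.7 CPM (0.84), and the lipase inhibitor gene Angptl4 rose by 0.97. Those with the largest falls were Acaa2, a thiolase gene (-2.18), and the acyl-CoA dehydrogenase gene Acadvl (-0.92). Exons of Acadvl overlap another gene over 42.9% of their length. Fabp4, the fat cell form of the carrier, was 7.72 and 7.57 CPM in DMSO and 8.33 and 7.54 CPM with BMS-582949 (0.05, adjusted p = 0.78).

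Vitamin D receptor targets had 6 tested genes of 12, with 2 higher and 2 lower (median -0.11, and 0.27 with library size only). Cyp24a1, the enzyme gene that active vitamin D induces most strongly, had no count in any library, and Cyp27b1, whose enzyme makes active vitamin D, had 3 counts in 1 DMSO library and none in the others. Thbd, for thrombomodulin, rose by 1.07. Slc37a2, a sugar phosphate exchanger gene, went from 2740 ± 216 to 486 ± 3.13 CPM (-2.50), and Spp1, for the matrix protein osteopontin, fell by 1.37, with 18.8% of its exon length shared with another gene model.

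Of 8 tested retinoic acid receptor targets 3 rose and 4 fell (median -0.88, and -0.50 with library size only). Among those that fell, Rarres2, named after its values were seen, had 15 and 19 counts in DMSO and none with BMS-582949. It passed the count filter only through its DMSO libraries, and with a minimum of 1 CPM 3 targets fell. Tgm2, for a transglutaminase, went from 205 ± 12.6 to 61.2 ± 4.80 CPM (-1.74, 21.8% of exon length shared with other genes), and the transcription factor gene Hic1 rose by 0.98 but was not called with DESeq2 (adjusted p = 0.066). Among 15 genes of ligand synthesis, breakdown and carriage, 3 rose and 4 fell (median 0.09), against 9 and 3 with library size only (0.48). Rdh10, which oxidises retinol, rose by 0.98, while Aldh1a2, which makes retinoic acid, changed by -1.11 from 1.72 ± 0.0183 CPM. Aldh1a2 was not called with library size only (-0.73, adjusted p = 0.11) or with DESeq2 (adjusted p = 0.089). Only 4 of 10 oestrogen receptor targets were tested, with 1 higher (Igfbp4, 0.79) and 3 lower, among them the protease gene Ctsd (-0.74), which shares 34.4% of its exon length with another gene model. With library size only 1 of these 4 fell (median -0.03, against -0.41).

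Clock genes, on which REV-ERB and ROR proteins act, had 6 higher and 3 lower of 16 tested (median 0.05), against 9 and 1 with library size only (0.43). Arntl, which encodes BMAL1 and is repressed by REV-ERB proteins, went from 8.81 and 8.21 CPM to 13.4 and 13.7 CPM (0.67 ± 0.13 SE, adjusted p = 6.6e-04). Clock, for its partner, was 21.7 and 21.5 CPM in DMSO and 21.9 and 21 CPM with the inhibitor (-0.01, adjusted p = 0.94). The period and cryptochrome genes Per3 and Cry2 rose by 1.21 and 1.00, Bhlhe40, a repressor of the clock, fell by 1.52, and Per1 fell by 0.48. Dbp, an output gene with 18% of its exon length shared with another gene, changed by -0.36 (adjusted p = 0.020). Dbp was not called with library size only (0.02), with DESeq2 (adjusted p = 0.068) or with the GC and length trend removed (adjusted p = 0.069). Nfil3 had a log2 fold change of -0.15 (adjusted p = 0.38). Per1 was not called with library size only (-0.10), with DESeq2 (adjusted p = 0.094) or with the GC and length trend removed (adjusted p = 0.056). RNA was taken at 1 time of culture, so no phase of the clock was measured.

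**Figure D5:**
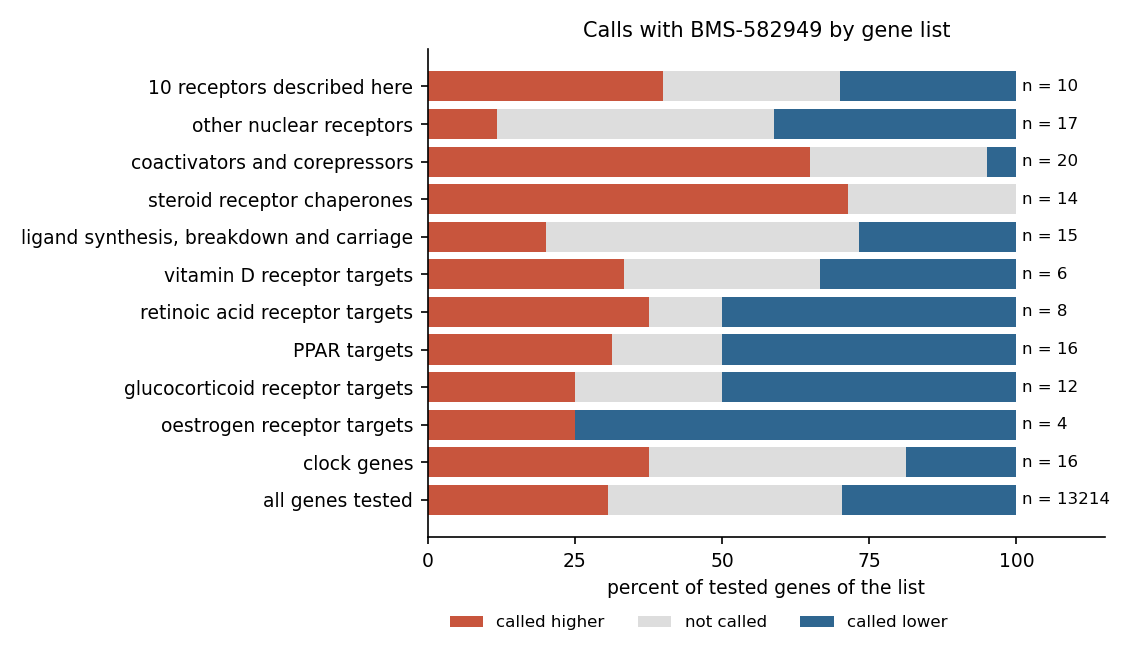
Share of tested genes called higher, not called and called lower with BMS-582949 (x axis, percent of the tested genes of each list, whose number stands at the right). The bottom bar is all 13214 genes. Coactivators and corepressors and the chaperones have the longest higher shares, and 7 of the 17 other nuclear receptors are lower.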

How the data were processed

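The authors deposited raw counts per gene model for 4 libraries, which are whole numbers with unequal column sums. Trimmomatic 0.36, HISAT2 2.0.4, DESeq2 1.30.1 and GRCm38 are named in the submitters' processing notes, without roles or order. How reads were counted, with which annotation and whether by strand, is not given in the sources used here. RNA was isolated with TRIzol before mRNA library preparation, per the labels' protocols.

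Columns were assigned by name. Treated titles transpose digits of the compound's name, so the treatment label was followed. Of 22036 Ensembl identifiers 22022 matched GENCODE M21 (GRCm38), which gave symbols, coordinates and exon lengths. Another 1354 models named NewGene have no symbol. Promoter windows came from RefSeq (GRCm38.p6), and no sequence of chromosome 18 is shown.

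Counts were filtered with filterByExpr (minimum count 10), scaled with TMM and tested with edgeR 4.0.16 in R 4.3.3 (glmQLFit, glmQLFTest, no covariate, 2 residual degrees of freedom), after a check on simulated data. In that simulation a small share of genes changed, with equal numbers of rises and falls. It therefore did not check TMM scaling where many genes change. SE is the log2 fold change over the square root of F. Intervals cover 95%. DESeq2 1.42.0, limma-voom (limma 3.58.1), other scalings and filters, a replicate block, GC and length correction (loess, span 0.3) and leaving out each library were alternatives. Replicates differed by more than sampling noise (a chi-square over genes, divided by its degrees of freedom, of 8.75 in DMSO and 12.4 with BMS-582949) and were counted as 2 samples per group. Nothing in the labels says that they came from separate animals or cultures, so the p-values reflect only how these samples vary, and that variation may be technical.

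The receptors and lists were chosen with earlier results of these data known. Genes named are the 10 receptors, 16 fixed genes whatever their result, and from each list up to 2 called genes per direction with the largest change and a mean CPM of at least 1. Others are said to be chosen after their values were seen. Some genes that this rule names are not reported here. Protein sequences were not used here.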

Additional observations from a re-analysis of the deposited data

How the results depend on the processing

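Each receptor was refitted under 15 alternatives. Rxra, Rara, Ppard and Nr3c1 kept direction and call in all of them. With library size only, 7 receptors were called higher and 1 lower, and Vdr, Esr1 and Nr1d2 joined those called while Nr1d1 and Rora left. Requiring an absolute log2 fold change of at least 1 left 0 higher and 1 lower (Ppard). Leaving out 1 library gave 3 to 4 higher and 1 to 3 lower, with 1 lower without BMS-582949 replicate 1. The change of Nr1d2 reversed to -0.08 with the GC and length trend removed. Rora was also not called with upper-quartile scaling (adjusted p = 0.066). Over all genes, library size only gave 6738 higher and 2240 lower, against 4035 and 3919 with TMM.

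Same-numbered libraries did not deviate together (correlation -0.0776 across genes), so the numbers were not taken as pairs. With a replicate block 4 receptors were higher and 3 lower, and no receptor's call changed.

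List counts moved by over 1.5 times as follows. With library size only, other receptors had 4 higher (2 with TMM), ligand genes 9 (3), PPAR targets 8 (5) and glucocorticoid targets 6 (3), while lower calls were 3 (6) for glucocorticoid targets, 1 (3) for oestrogen targets and 1 (3) for clock genes. Clock genes also had 1 lower with DESeq2, with the GC and length trend removed and without BMS-582949 replicate 2. Other receptors had 1 higher with a minimum of 1 CPM and without DMSO replicate 2. Ligand genes had 2 lower with a minimum of 1 CPM, 1 to 2 lower without DMSO replicate 1, DMSO replicate 2 or BMS-582949 replicate 1, and 5 higher without DMSO replicate 2. Chaperones had 1 lower with the GC and length trend removed and when either replicate 2 was left out. The causes were not tested. Vdr, Esr1 and Rora had the fewest counts of the 10, at 20 to 157 per library, and the effect of depth on their calls was not tested.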

Other observations

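The third RXR gene, Rxrg, named after its values were seen, had no count in either DMSO library and 28 and 18 counts with BMS-582949. Set against a floor of 3 counts per DMSO library it was at least 5.45-fold higher. It made up 1.12% and 0.759% of the summed RXR level per exon length in the treated libraries. Nr1h2, for the oxysterol receptor LXRβ and also named after its values were seen, had the highest level per exon length of all nuclear receptors in DMSO (35.4 ± 0.358 CPM per kilobase), and fell by 0.54, while its paralogue Nr1h3 rose by 0.33.

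Nr1i3, for the xenobiotic receptor CAR and likewise picked out after its values were seen, varied more within groups than between them, at 122 and 5 counts in DMSO and 8 and 274 with BMS-582949. Its exons overlap Tomm40l on the opposite strand over 74.9% of their length, and the part of that gene in these counts was not tested.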
